A study of Mus musculus with 16 samples.

Results

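Ribosome footprints are the short mRNA fragments that a translating ribosome shields from nuclease, and their count per gene follows how many ribosomes were on that gene's mRNA. The comparison here asked whether the footprint response to spared nerve injury (SNI) differed between the dorsal root ganglia (DRG) and the dorsal part of the lumbar spinal cord. For each gene it is the log2 change from sham to SNI in the DRG minus the log2 change from sham to SNI in the cord, so a positive value means a change further up, or less far down, in the DRG. The genes were all those annotated as protein coding with a minimum of footprint reads over the 4 libraries of each tissue, which were 11228 of 22040 protein coding genes. A further 1328 protein coding genes reached that minimum in the DRG alone and 434 in the cord alone, and these had no test of the difference. A gene with 124 cord reads (C5ar1) missed it and one with 129 (Mettl23) passed it.

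All libraries came from C57BL/6J female mice, 8 weeks old by the labels and sampled 30 days after the operation, and no transgene or drug is named. SNI mice had the bilateral operation, in which branches of the sciatic nerve are cut and a branch is spared, and sham mice were operated on in the same way with the nerve left intact. The 4 groups were sham DRG, SNI DRG, sham cord and SNI cord, each with 2 libraries, and each library was made from the tissue of 10 pooled mice. Lumbar DRG and the cord segments that receive their fibres were taken, and the same lysates also gave poly(A) mRNA libraries. The pools average injured and spared sensory neurons, glia and vessels, so fewer cells of a type and less RNA per cell cannot be told apart in any value below.

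The DRG holds the cell bodies of primary sensory neurons, wrapped by satellite glia, while their central fibres end on neurons of the dorsal horn, among astrocytes, oligodendrocytes and microglia. A nerve cut severs the peripheral fibre of the DRG neuron and the fibre of motor neurons in the same nerve, but no fibre of a dorsal horn neuron. Cut sensory neurons are known for switching on neuropeptides, growth-associated proteins and injury transcription factors and for lowering ion channels, and the cord is known for a microglial response to the same injury.

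The DRG footprint libraries held 7467803 to 21613483 counted reads and the cord libraries 6898056 to 10688450, and 96.9% to 98.8% of reads were on protein coding genes. The tissue labels were checked on defining markers. Scn10a, a sodium channel of nociceptors, was at 1534 to 1569 CPM (read counts scaled to a common library size, with TMM, the trimmed mean of M-values) in the DRG and at 2.54 to 6.75 CPM in the cord, and Slc6a5, the glycine transporter of inhibitory neurons, was at 804 to 841 CPM in the cord and at 0.568 to 4.17 CPM in the DRG. The 2 libraries of each group differed by a median of 0.0605 to 0.0799 on the log2 scale. Beyond sampling noise, for which a mean chi-square per gene of 1 would be found, the cord pairs gave 1.16 and 1.2 and the DRG pairs 2.70 and 3.23. The p-values below measure only the spread between these pools.

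More genes changed in the DRG than in the cord, and the difference between them was called for 921 of 11228 genes (8.2%) at an adjusted p under 0.05 in the edgeR quasi-likelihood interaction test. All adjusted p-values here are from that tool with Benjamini-Hochberg adjustment unless another is named. In 447 genes (3.98%) the response was higher in the DRG and in 474 (4.22%) it was lower. Within the tissues, the same model called 842 genes up (7.5%) and 957 down (8.52%) in the DRG, and 89 up (0.793%) and 104 down (0.926%) in the cord. The part of the deeper DRG sequencing in these counts was not tested, nor that of fitting the spread of both tissues jointly. Most called differences were small, with a median absolute size of 0.31 on the log2 scale and 364 of the 921 under 1.2-fold. Beyond 1.5-fold it was higher in 98 genes (0.873%) and lower in 38 (0.338%), and beyond 2-fold the DRG was higher in 30 genes and lower in 7. With library sizes alone in place of TMM factors the split was 553 higher and 359 lower. DESeq2 called 150 higher and 140 lower, all of them among the 921, and a test against a 1.5-fold difference called 22 and 5. Of 114 named genes with a called difference, 56 lost the call when 1 or more of the 8 libraries were left out in turn, and the libraries concerned are given with each gene.

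Of the 921 genes, 672 had also changed in the DRG and not passed the test in the cord, 48 had passed in the cord and not in the DRG, 66 had passed in both, and 135 had passed in neither. Of these 66 genes, 44 moved in opposite directions, 25 of them up in the DRG and 19 down. Choosing genes by a called difference favours opposite movement. Of all 109 genes called in both tissues, 65 moved in the same direction and 44 in opposite directions. The absolute change was larger in the DRG for 694 genes and in the cord for 227. The sham and SNI libraries of the DRG did not overlap in 877 of the 921 genes, beside 5973 of all 11228 (53.2%). In the plot of DRG change against cord change, most called genes spread along the horizontal axis.

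**Figure D1:**
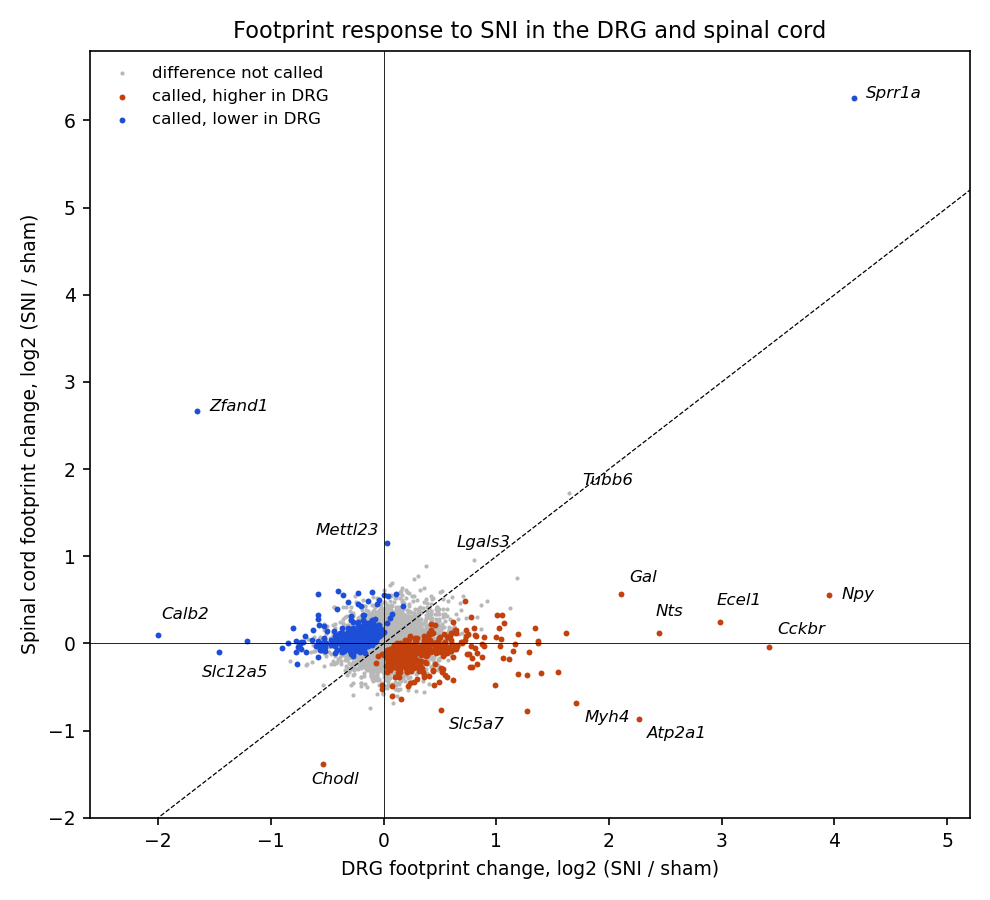
Each point is 1 of 11228 protein coding genes, placed by its DRG footprint change (horizontal axis) and its spinal cord footprint change (vertical axis), both as log2 of SNI over sham. Orange points were called with a higher response in the DRG (447 genes), blue points with a lower one (474 genes), and the dashed line marks equal change. Cckbr, Npy and Ecel1 lie far to the right, Cckbr at a cord change near 0, Sprr1a rose in both tissues, and Zfand1 lies in the upper left, down in the DRG and up in the cord.

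Among the largest differences above 0 were neuropeptides and a peptide receptor that rose further in the DRG than in the cord. Npy encodes neuropeptide Y, Nts neurotensin and Gal galanin, and Cckbr encodes the cholecystokinin B receptor. Cckbr was at 1.81 and 2.13 CPM in sham DRG, 22 and 21.7 CPM in SNI DRG, 23.9 and 25.7 CPM in sham cord and 25.3 and 23.4 CPM in SNI cord. The SNI DRG libraries came near the level of the cord and carried Cckbr past the minimum, and the cord pairs overlapped. Its difference was 3.45 ± 0.185 (SE, adjusted p = 1.7e-17), from a DRG change of 3.42 and a cord change of -0.035. Npy was at 5.15 and 4.68 CPM in sham DRG, 75.4 and 74 CPM in SNI DRG, 38.9 and 42.5 CPM in sham cord and 61.5 and 59.1 CPM in SNI cord. Both SNI pairs lay above their sham pairs without overlap, in each tissue. The difference was 3.39 ± 0.131 (SE, adjusted p = 8.9e-22), with a DRG change of 3.95 (adjusted p = 5.7e-30) and a cord change of 0.56 (adjusted p = 7.0e-07). Nts was at 25.6 and 26.6 CPM in sham DRG, 141 and 145 CPM in SNI DRG, 43.8 and 42.8 CPM in sham cord and 47.8 and 46.3 CPM in SNI cord. The DRG pairs lay far apart and the cord pairs close together, with a difference of 2.32 ± 0.0934 (SE, adjusted p = 1.8e-21) and a cord change of 0.12 (adjusted p = 0.5). Gal was at 37.3 and 35 CPM in sham DRG, 157 and 151 CPM in SNI DRG, 20.4 and 19.8 CPM in sham cord and 29.6 and 29.7 CPM in SNI cord. Galanin footprints rose in both tissues, by 2.1 in the DRG and 0.56 in the cord on the log2 scale, and the difference was 1.54 ± 0.115 (SE, adjusted p = 3.3e-13).

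Of 20 listed injury neuropeptides and secreted factors, 9 reached the minimum. Of the 9, 5 were higher in the DRG and none was lower, beside 3.98% and 4.22% of all genes. The median difference of the 9 was 0.51, beside -0.0089 over all genes tested. The other 2 of the 5 were Csf1, the growth factor of macrophages and microglia, at 1.03 ± 0.112 (SE, adjusted p = 8.3e-09), and Bdnf, a neurotrophin, at 0.51 ± 0.144 (SE, adjusted p = 0.018). The call of Bdnf was lost without the second sham DRG (0.43), first sham cord (0.35) or second SNI cord library (0.50). Among 24 tested opioid, GABA and serotonin receptor genes, a list that also holds other peptide receptors, 3 were higher in the DRG and 2 lower. The shares were 12.5% and 8.33%, beside 3.98% and 4.22% of all genes. Besides Cckbr the called genes above 0 were the neuropeptide Y receptors Npy1r (0.68) and Npy2r (0.53). Below 0 were the nociceptin receptor Oprl1 (-0.41) and the serotonin-gated channel Htr3a (-0.58). Npy2r was at 38 and 36.3 CPM in sham DRG, 50.4 and 49.4 CPM in SNI DRG, 12.6 and 13.2 CPM in sham cord and 13 and 11.3 CPM in SNI cord. The SNI DRG pair lay above the sham pair, the cord pairs overlapped, and DESeq2 did not call this difference (adjusted p = 0.23). Its call was also lost without the second sham DRG (0.48), second sham cord (0.51) or second SNI cord library (0.45), and that of Htr3a without the first sham cord (-0.49) or second SNI cord library (-0.53).

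Genes of axon growth also rose further in the DRG. Of 28 tested, 16 had a higher response in the DRG (57.1%, beside 3.98% of all genes) and 1, Sprr1a, a lower one, and the median difference was 0.19. DESeq2 called 10 of the 16. Ecel1, a membrane peptidase induced by nerve injury, was at 2.23 and 3.37 CPM in sham DRG, 23.6 and 24.4 CPM in SNI DRG, 76 and 69.2 CPM in sham cord and 84.2 and 87.1 CPM in SNI cord. Its sham level was lower in the DRG than in the cord, and the DRG pairs lay far apart, for a difference of 2.74 ± 0.16 (SE, adjusted p = 2.3e-16). The cord change was 0.25 (adjusted p = 0.018). The semaphorin Sema6a differed by 1.36 ± 0.082 (SE, adjusted p = 5.7e-16) and the adhesion protein Flrt3 by 1.33 ± 0.107 (SE, adjusted p = 2.5e-12), with cord changes of 0.0046 and 0.033. Stmn4, a microtubule regulator of the stathmin family, differed by 1.08 ± 0.0787 (SE, adjusted p = 1.7e-13). Gap43, the growth cone protein, rose in both tissues, by 0.62 in the DRG and 0.24 in the cord, and differed by 0.37 ± 0.0574 (SE, adjusted p = 1.0e-05).

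Sprr1a, a small proline-rich protein that promotes axon outgrowth, had the largest log2 rise of the genes tested, in the DRG and in the cord, and the rise was larger in the cord. It was at 15.4 and 14.3 CPM in sham DRG, 264 and 263 CPM in SNI DRG, 1.08 and 0.272 CPM in sham cord and 42.9 and 50.1 CPM in SNI cord. The cord sham level rested on 8 and 3 reads, beside 338 and 356 reads after SNI, which carried Sprr1a past the minimum. The DRG rose by 4.17 (adjusted p = 3.1e-37) and the cord by 6.26 (adjusted p = 3.6e-24), a difference of -2.08 ± 0.357 (SE, adjusted p = 6.4e-05). Without the second sham cord library, the one with 3 reads, the difference was -1.22 (adjusted p = 0.083) and no longer passed the test, and without the first sham cord library it was -3.17. Of 15 tested injury transcription factors, 13 had a positive difference and 1 (6.67%, beside 3.98% of all genes) passed the test. This was Jun at 0.26 ± 0.0664 (SE, adjusted p = 0.0089), a call lost without the second sham cord library (0.23). Sox11, a factor of developing and regenerating neurons, was at 0.71 ± 0.247 (SE, adjusted p = 0.066). Atf3, the best known marker of cut sensory neurons, missed the minimum with 112 cord reads and had no test. Its reads were 94 and 194 in sham DRG, 936 and 1759 in SNI DRG, 6 and 13 in sham cord and 42 and 51 in SNI cord.

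The promoter windows of 4 of these genes are shown because Sprr1a rose in both tissues and Nts, Npy and Gal rose further in the DRG. They are RefSeq windows on GRCm38.p6, 250 bases before to 50 after the start and read 5′ to 3′ on the gene's strand. Sprr1a is at chr3:92485832-92486131 (reverse strand), Nts at chr10:102490369-102490668 (reverse strand), Npy at chr6:49822460-49822759 (forward strand) and Gal at chr19:3414495-3414794 (reverse strand). Capitals mark TGACTCA, the site of Jun and Fos factors, on either strand (TGAGTCA on the other), or TGACGTCA, the cAMP response element.
Sprr1a: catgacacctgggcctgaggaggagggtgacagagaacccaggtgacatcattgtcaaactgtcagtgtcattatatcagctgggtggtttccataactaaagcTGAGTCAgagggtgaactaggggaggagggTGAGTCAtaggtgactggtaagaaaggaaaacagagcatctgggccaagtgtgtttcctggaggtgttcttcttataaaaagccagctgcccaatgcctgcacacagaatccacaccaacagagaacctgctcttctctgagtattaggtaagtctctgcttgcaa
Nts: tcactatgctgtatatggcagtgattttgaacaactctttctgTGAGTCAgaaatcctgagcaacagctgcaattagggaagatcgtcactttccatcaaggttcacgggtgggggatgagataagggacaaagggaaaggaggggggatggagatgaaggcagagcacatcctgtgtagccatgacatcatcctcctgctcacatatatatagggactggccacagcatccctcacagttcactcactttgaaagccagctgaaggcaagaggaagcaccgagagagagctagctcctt
Npy: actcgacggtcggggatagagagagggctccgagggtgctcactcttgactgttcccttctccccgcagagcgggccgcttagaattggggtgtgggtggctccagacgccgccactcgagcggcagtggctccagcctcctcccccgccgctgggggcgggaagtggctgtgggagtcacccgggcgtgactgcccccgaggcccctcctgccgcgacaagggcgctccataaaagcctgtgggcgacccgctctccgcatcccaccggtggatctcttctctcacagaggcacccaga
Gal: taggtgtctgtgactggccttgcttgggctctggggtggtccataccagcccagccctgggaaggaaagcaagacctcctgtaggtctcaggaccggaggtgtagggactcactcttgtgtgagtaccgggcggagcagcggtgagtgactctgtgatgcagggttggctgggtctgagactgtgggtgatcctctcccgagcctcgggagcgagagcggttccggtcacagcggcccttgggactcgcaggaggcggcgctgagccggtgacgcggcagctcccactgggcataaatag

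The Sprr1a window held TGAGTCA at 2 places, which begin at positions -146 and -116 from the start, and the Nts window held it once, at -207. Neither motif was found in the Npy and Gal windows. TGACTCA on either strand was in 5.2% of all 32851 promoter windows, in 3.61% of the windows of the genes tested, in 4.44% of those of genes with a higher response in the DRG and in 4.89% of those with a lower one. For TGACGTCA, which reads the same on both strands, the shares were 1.79%, 2.98%, 2.22% and 4.14%. RefSeq windows were matched by symbol for 8770 members. A match describes the letters in the window, not a bound site.

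**Figure D2:**
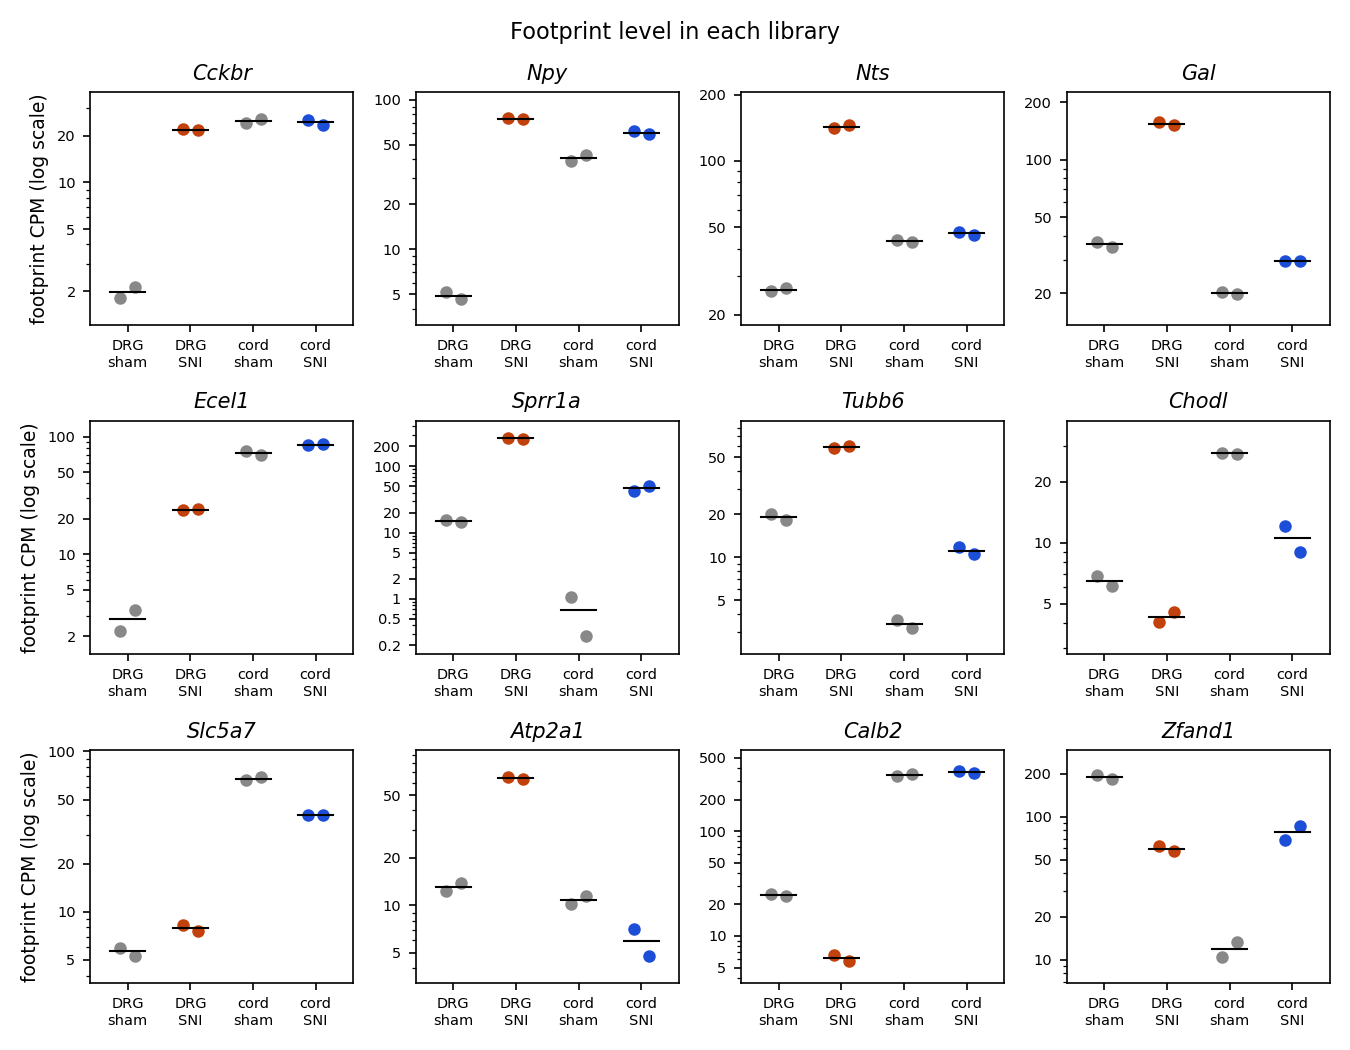
Footprint levels of 12 genes in each library, in CPM on a log axis, with 2 libraries per group as points and the group mean as a line. Sham groups are grey, SNI DRG orange and SNI cord blue. Cckbr, Npy, Nts, Gal and Ecel1 rose most in the DRG, Sprr1a and Tubb6 rose in both tissues, Chodl fell in both, and Slc5a7, Atp2a1 and Zfand1 moved in opposite directions.

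A smaller set of genes answered alike in both tissues. In the cord 193 genes were called in all (1.72%) and in the DRG 1799 (16%). Of 109 genes called in both, 65 moved in the same direction, 33 up and 32 down, and for 43 of the 65 the difference did not pass the test. Tubb6, a beta-tubulin, was at 20.2 and 18.2 CPM in sham DRG, 57.8 and 59.6 CPM in SNI DRG, 3.63 and 3.17 CPM in sham cord and 11.7 and 10.6 CPM in SNI cord. All SNI libraries lay above the sham libraries of their tissue, with changes of 1.65 in the DRG and 1.73 in the cord and a difference of -0.079 ± 0.213 (SE, adjusted p = 0.91). The higher SNI cord libraries carried Tubb6 past the minimum in the cord. Lgals3, galectin 3 of phagocytes, was at 33.2 and 31.8 CPM in sham DRG, 55 and 56.9 CPM in SNI DRG, 3.77 and 5.71 CPM in sham cord and 9.28 and 9.99 CPM in SNI cord. It rose in both tissues and differed by -0.16 ± 0.203 (SE, adjusted p = 0.74). The microglia and macrophage list rose in both tissues. Of 27 tested genes, 18 rose in the DRG and 7 in the cord, beside 7.5% and 0.793% of all genes, and none fell in either. The summed level went from 1125 and 1140 CPM in sham DRG to 1393 and 1416 CPM in SNI DRG. In the cord it went from 955 and 956 CPM in sham to 1150.4 and 1155 CPM in SNI libraries. The complement genes C1qa, C1qb and C1qc, which microglia and macrophages make, rose by 0.49, 0.53 and 0.52 in the DRG and by 0.40, 0.51 and 0.40 in the cord, with differences of 0.092, 0.019 and 0.13 that did not pass the test. Other members did differ. Of the 27, 6 were higher in the DRG (22.2%) and 1 lower (3.7%), beside 3.98% and 4.22% of all genes. DESeq2 called 1 of the 6. Without the second sham DRG or second sham cord library 2 were called, and without the second SNI DRG or first SNI cord library 3. Cx3cr1, the fractalkine receptor, differed by 0.63 ± 0.136 (SE, adjusted p = 0.0016), Trem2, a lipid receptor of microglia, by 0.68 ± 0.217 (SE, adjusted p = 0.04) and Mrc1, a mannose receptor of tissue macrophages, by 0.50 ± 0.132 (SE, adjusted p = 0.01). Cx3cr1 lost its call without the second sham DRG (0.56) or second SNI DRG library (0.52), Mrc1 without the second sham cord (0.45) or second SNI cord library (0.40), and Trem2 without any 1 library other than the second SNI cord, with values of 0.57 to 0.98 over the 8 fits.

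Complement genes outside the C1q group rose in the DRG and not in the cord. Of 8 complement genes tested, 4 were higher in the DRG, beside a background of 3.98%. C3, the central complement protein, was at 35.5 and 34.9 CPM in sham DRG, 49 and 46.5 CPM in SNI DRG, 49.4 and 44.5 CPM in sham cord and 37.2 and 37.7 CPM in SNI cord. It rose by 0.44 (adjusted p = 2.1e-06) in the DRG and fell by 0.31 in the cord, for a difference of 0.75 ± 0.103 (SE, adjusted p = 1.1e-06). C4b differed by 0.65 ± 0.0943 (SE, adjusted p = 3.4e-06), and the inhibitor Serping1 by 0.27. Among 21 chemokine and cytokine genes 5 were higher in the DRG (23.8%, beside the same 3.98%), and DESeq2 called 1 of them. They were Csf1 as above and the receptors Il17ra (0.68), Csf1r (0.20), Il6st (0.16) and Lifr (0.15). Without the second SNI DRG library 2 were called, and without the first sham or first SNI cord library 3. Of 14 tested MHC and antigen presentation genes, 8 rose in the DRG and 2 in the cord, beside 7.5% and 0.793% of all genes. The difference was called for 1 of the 14 (7.14%) and not for 13. The 1 called was Cd74, the invariant chain, at 0.24 ± 0.0562 (SE, adjusted p = 0.01). The call of Cd74 was lost without the second sham cord (0.23) or first SNI cord library (0.25), that of Il17ra without the second SNI DRG library (0.65), and that of Csf1r without the second sham DRG (0.14), second SNI DRG (0.13), first sham cord (0.19) or first SNI cord library (0.21).

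Skeletal muscle genes rose in the DRG libraries and lay lower after SNI in the cord libraries. Of 32 listed, 12 reached the minimum, and of these 10 were higher in the DRG (83.3%, beside 3.98% of all genes) and none lower. The median difference was 1.51. The summed level over the 32 was 226 and 229 CPM in sham DRG, 549 and 549 CPM in SNI DRG, 217 and 208 CPM in sham cord and 174 and 165 CPM in SNI cord. Atp2a1, the calcium pump of fast muscle, was at 12.4 and 13.8 CPM in sham DRG, 65.3 and 63.6 CPM in SNI DRG, 10.2 and 11.5 CPM in sham cord and 7.12 and 4.78 CPM in SNI cord. No pair overlapped, with a DRG change of 2.27 (adjusted p = 3.2e-24), a cord change of -0.87 (adjusted p = 0.0017) and a difference of 3.14 ± 0.195 (SE, adjusted p = 1.5e-15). An exon of Atp2a1 overlaps Rabep2 on the other strand. Myh4, a fast myosin heavy chain, was at 30.7 and 31.8 CPM in sham DRG, 103 and 103 CPM in SNI DRG, 16.9 and 15.1 CPM in sham cord and 10.3 and 9.43 CPM in SNI cord, for a difference of 2.4 ± 0.149 (SE, adjusted p = 1.5e-15). Tnnt3, Mylpf, Ckm and Acta1, which encode further contractile proteins and muscle creatine kinase, differed by 2.05, 1.87, 1.73 and 1.55. How much muscle RNA each pool took up, and its part in these values, was not tested.

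Of 7 tested motor neuron genes, 3 fell in the cord, 2 had a higher response in the DRG and 1, Ache, a lower one. Over all genes 0.926% fell in the cord, 3.98% had a higher response in the DRG and 4.22% a lower one. The 12 listed genes summed to 3512 to 3694 CPM in the DRG libraries and 691 to 810 CPM in the cord libraries, so the list is not particular to the cord. Slc5a7, the choline transporter of cholinergic neurons, was at 5.98 and 5.33 CPM in sham DRG, 8.25 and 7.62 CPM in SNI DRG, 66.4 and 69.1 CPM in sham cord and 40.2 and 40.1 CPM in SNI cord. It fell by 0.76 in the cord (adjusted p = 1.6e-10) and rose by 0.51 (adjusted p = 0.012) in the DRG, where it rested on 394 reads. The difference was 1.27 ± 0.16 (SE, adjusted p = 2.0e-07). Chodl, a marker of fast motor neurons, was at 6.82 and 6.1 CPM in sham DRG, 4.04 and 4.55 CPM in SNI DRG, 27.8 and 27.4 CPM in sham cord and 12.1 and 9.01 CPM in SNI cord. It fell in both tissues, further in the cord, and differed by 0.84 ± 0.211 (SE, adjusted p = 0.0065), a call that DESeq2 did not make and that was lost without the second sham DRG (0.73), second SNI DRG (0.73) or second SNI cord library (0.68). Ache, which breaks down acetylcholine, differed by -0.17, and its call was lost without the second sham DRG (-0.15), second SNI DRG (-0.14) or first sham cord library (-0.11). Chat, which makes acetylcholine, had 5 DRG reads and therefore no test of the difference. It was at 24.7 and 23.9 CPM in sham cord and 17.5 and 18 CPM in SNI cord, with no overlap. How much cord tissue outside the dorsal part each pool held, and its part in these values, was not tested.

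Collagen and matrix genes moved as a group. Of 41 tested, 39 rose in the DRG and none fell, and 6 fell in the cord and none rose. Over all genes 7.5% rose in the DRG and 0.926% fell in the cord. The response was higher in the DRG for 29 (70.7%, beside 3.98% of all genes) and lower for none. The median difference was 0.34, from a median DRG change of 0.21 and a median cord change of -0.088. DESeq2 called 12 of the 29, and without the second sham cord library 19 were called. Mmp16, a membrane matrix protease, had the largest difference at 1.17 ± 0.136 (SE, adjusted p = 3.8e-08). Tnc, tenascin C, was at 23.4 and 20.7 CPM in sham DRG, 33.2 and 30.7 CPM in SNI DRG, 20.2 and 17.9 CPM in sham cord and 17.8 and 18.7 CPM in SNI cord. The DRG pairs did not overlap, the difference was 0.60 ± 0.142 (SE, adjusted p = 0.0036), and DESeq2 did not call it, nor was it called without the second sham DRG library (0.48). Col12a1, a fibril-associated collagen, rose by 0.13 (adjusted p = 0.00025) in the DRG and fell by 0.34 (adjusted p = 3.7e-07) in the cord. Decorin (Dcn) and fibronectin (Fn1) also rose in the DRG and fell in the cord, with differences of 0.40 ± 0.0465 (SE, adjusted p = 4.5e-08) and 0.37 ± 0.0391 (SE, adjusted p = 4.3e-09). For Col3a1, a fibrillar collagen, the cord change was -0.047 (adjusted p = 0.74) and the difference 0.36 ± 0.0437 (SE, adjusted p = 6.6e-08). Endothelial genes had a median difference of 0.25 with 6 of 20 higher in the DRG, beside 3.98% of all genes, among them Pecam1 and Cdh5, which form endothelial junctions, at 0.55 and 0.44. DESeq2 called 1 of the 6, 2 were called without the first SNI cord library, and 3 without the second sham DRG, second SNI DRG or first sham cord library. Pecam1 lost its call without any 1 of the 8 libraries, with values of 0.48 to 0.67, and Cdh5 without the second sham cord (0.38) or first SNI cord library (0.43). The list summed to 819.7 and 818 CPM in sham DRG, 903 and 921 CPM in SNI DRG, 969.5 and 956 CPM in sham cord and 916 and 923 CPM in SNI cord.

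**Figure D3:**
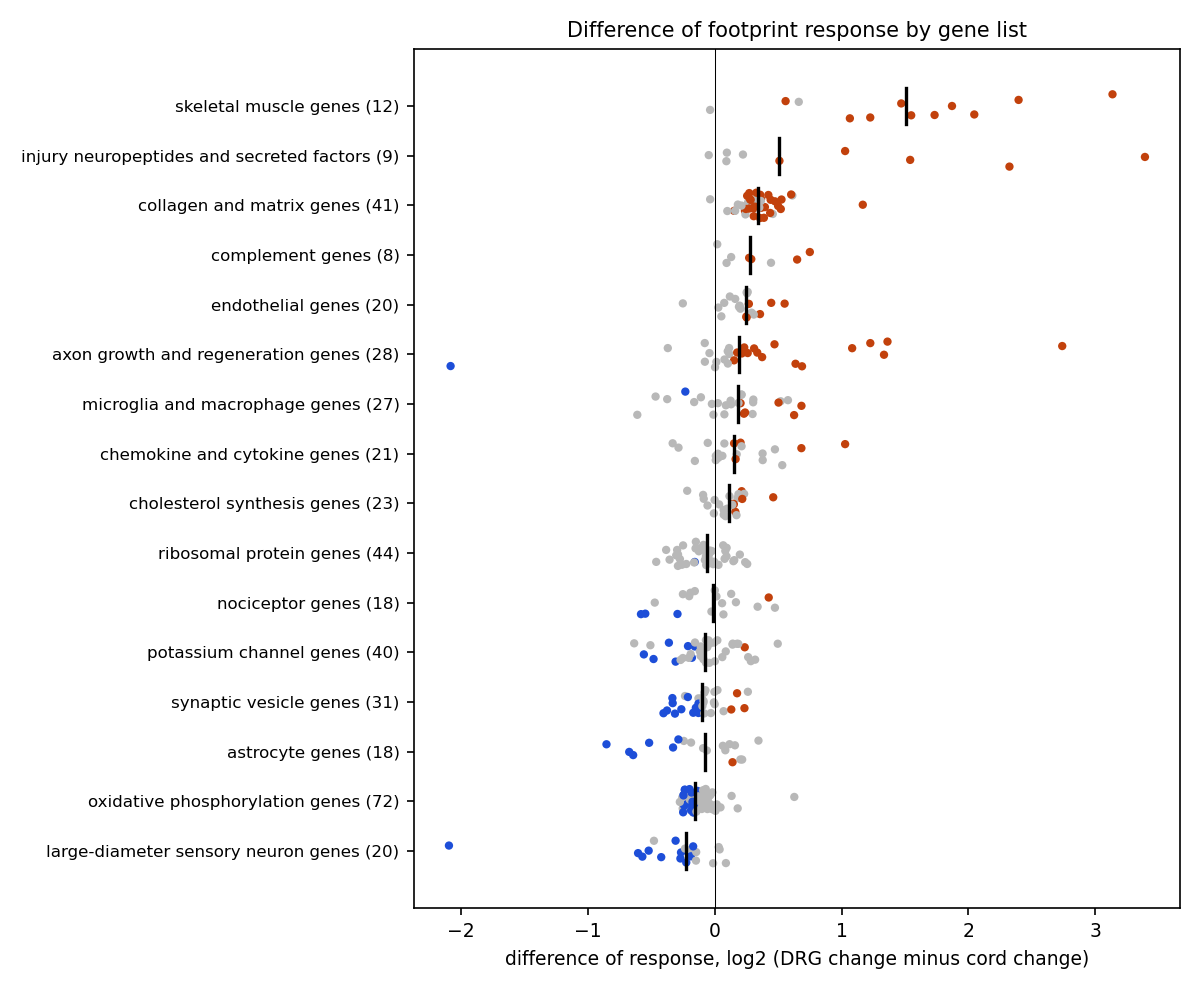
Difference of response (log2, DRG change minus cord change) of the tested genes of 16 lists, 1 point per gene, with the number tested in parentheses. Orange and blue points were called higher and lower in the DRG, grey points were not called, and the black bar is the list's median. Skeletal muscle, neuropeptide and matrix genes lie mostly right of 0, and large-diameter neuron, oxidative phosphorylation and synaptic vesicle genes lie mostly left of it.

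Genes of large-diameter sensory neurons, which carry touch and position sense, fell in the DRG. Of 20 tested, 15 fell in the DRG and 3 in the cord, beside 8.52% and 0.926% of all genes. The response was lower in the DRG for 11 (55%, beside 4.22% of all genes) and higher for none, with a median of -0.23. Calb2, the calcium buffer calretinin, was at 25.3 and 23.9 CPM in sham DRG, 6.6 and 5.73 CPM in SNI DRG, 338 and 351 CPM in sham cord and 372 and 363 CPM in SNI cord. The SNI DRG pair was well below the sham pair, the cord pairs moved slightly the other way, and the difference was -2.1 ± 0.0993 (SE, adjusted p = 3.3e-19). Pvalb, parvalbumin of muscle afferents, was at 95.8 and 98.4 CPM in sham DRG, 65.3 and 66.5 CPM in SNI DRG, 118 and 134 CPM in sham cord and 134 and 121 CPM in SNI cord, and the cord pairs overlapped. It differed by -0.57 ± 0.0729 (SE, adjusted p = 2.4e-07). The neurofilament genes Nefl, Nefm and Nefh, which set the calibre of large axons, fell in both tissues, by more in the DRG, and differed by -0.23, -0.27 and -0.27. Vsnl1, a calcium sensor, and Esrrg, a nuclear receptor, differed by -0.42 and -0.52. Nociceptor genes were split, with 1 of 18 higher, 3 lower (1 without the second sham cord, 6 without the first SNI cord and 0 without the second SNI cord library) and a median of -0.014. The shares higher and lower were 5.56% and 16.7%, beside 3.98% and 4.22% of all genes. Gfra1, a receptor of the GDNF family, was the 1 higher at 0.42 ± 0.061 (SE, adjusted p = 2.7e-06). Tac1, the substance P precursor, differed by -0.29 ± 0.0754 (SE, adjusted p = 0.0083), and its call was lost without the second sham cord (-0.28) or second SNI cord library (-0.18). Scn9a, a sodium channel of nociceptors, was at 607 and 626 CPM in sham DRG, 609 and 628 CPM in SNI DRG, 9.42 and 7.89 CPM in sham cord and 11.7 and 13.4 CPM in SNI cord. The DRG change was 0.0042 (adjusted p = 0.94), and the difference was -0.55 ± 0.112 (SE, adjusted p = 0.009) beside a cord rise of 0.55 (adjusted p = 0.021). Without the second sham cord or second SNI cord library the Scn9a difference was -0.38 or -0.43 and was not called. An antisense gene overlaps Scn9a, and reads of the pair cannot be told apart without strand.

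Where ion channel and synaptic vesicle genes differed, most were lower in the DRG. Of 40 tested potassium channel genes 7 were lower and 1 higher, and of 30 sodium, calcium and HCN channel genes 6 were lower and 1 higher, beside 4.22% lower and 3.98% higher over all genes. Hcn2, a pacemaker channel, and Scn1a and Scn8a, sodium channels of large neurons, differed by -0.30, -0.25 and -0.21. The 1 calcium channel gene that was higher was Cacna2d1, the subunit that gabapentin binds. It was at 411 and 442 CPM in sham DRG, 623 and 632 CPM in SNI DRG, 181 and 177 CPM in sham cord and 176 and 186 CPM in SNI cord. The DRG rose by 0.55 (adjusted p = 8.2e-21), the cord changed by 0.019 (adjusted p = 0.88), and the difference was 0.53 ± 0.041 (SE, adjusted p = 1.0e-12). Of 31 synaptic vesicle genes 12 were lower and 3 higher, beside the same 4.22% and 3.98%, with a median of -0.10. Snap25, a fusion protein of synaptic vesicles, was at 1538 and 1531 CPM in sham DRG, 1229 and 1216 CPM in SNI DRG, 4017 and 3945 CPM in sham cord and 4035 and 3966 CPM in SNI cord, for a difference of -0.33 ± 0.0288 (SE, adjusted p = 2.1e-11). Vamp1 and Syt2, a vesicle fusion protein and a calcium sensor of fast synapses, differed by -0.40 and -0.38, whereas Syt4 differed by 0.23. DESeq2 called 6 of the 12, and without the second sham cord or the first SNI cord library 6 were called.

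Nuclear genes of oxidative phosphorylation, whose products form the respiratory chain and ATP synthase, moved slightly apart in the 2 tissues. Of 72 tested, 22 fell in the DRG and none rose, and 9 rose in the cord and none fell. Over all genes 8.52% fell in the DRG and 0.793% rose in the cord. The response was lower in the DRG for 29 (40.3%, beside 4.22% of all genes) and higher for none. The shift was small for each gene. The median difference was -0.16, with medians of -0.076 in the DRG and 0.059 in the cord, and 6 of the 72 had a positive difference. The 4 largest called were Ndufb8 (-0.26), Ndufs8 (-0.25) and Ndufb10 (-0.25) of complex I and Uqcrh (-0.25) of complex III. Without the first SNI cord library Ndufb10 was at -0.16 and Uqcrh at -0.20, and neither was called. These counts depend on the test, since DESeq2 called 2 genes of the list, the fit with no filter 10 and the fits that left out 1 library 11 (second sham cord), 15 (second SNI cord), 16 (first SNI cord) and 19 (first sham cord or first SNI DRG). The naming rules also picked 3 genes of the mitochondrial genome, each with a positive difference. How its other genes moved was not counted, so the 3 do not stand for that genome. mt-Co1, a core subunit of cytochrome oxidase, was at 203 and 217 CPM in sham DRG, 216 and 228 CPM in SNI DRG, 379 and 465 CPM in sham cord and 309 and 249.9 CPM in SNI cord. It fell in the cord by 0.60 (adjusted p = 3.8e-10), the DRG change was 0.074, and the difference was 0.68 ± 0.081 (SE, adjusted p = 6.4e-08). mt-Nd5 and mt-Nd1 differed by 0.51 and 0.46, and mt-Nd5 shares bases with mt-Nd6 on the other strand. Without the second sham cord library mt-Nd5 was at 0.30, and mt-Nd1 was at 0.72 without the first and 0.29 without the second SNI cord library. Mitochondrial genes took 0.198% and 0.240% of the reads in sham cord, 0.177% and 0.149% in SNI cord and 0.0985% to 0.106% in the DRG, and DESeq2 called none of the 3.

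**Figure D4:**
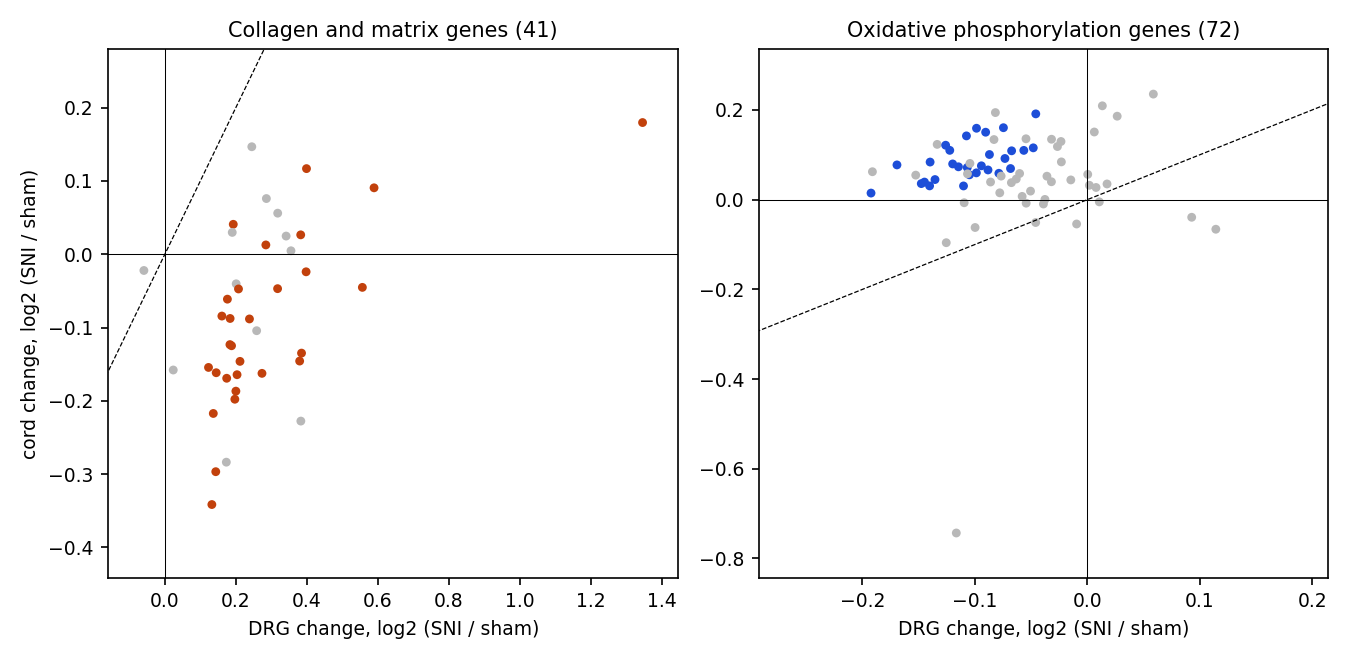
DRG change (horizontal) against cord change (vertical), both log2 of SNI over sham, for 41 collagen and matrix genes on the left and 72 oxidative phosphorylation genes on the right. Orange and blue points were called higher and lower in the DRG, grey points were not called, and the dashed line marks equal change. Nearly all matrix genes lie right of a DRG change of 0, and the called oxidative phosphorylation genes lie in the upper left, below 0 in the DRG and above 0 in the cord.

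Astrocyte genes were mostly lower where they differed, with 6 of 18 lower in the DRG and 1 higher, beside 4.22% and 3.98% of all genes (3 lower without the second SNI DRG library). Gfap, the astrocyte filament, was at 5.84 and 6.04 CPM in sham DRG, 4.95 and 3.79 CPM in SNI DRG, 950.2 and 937 CPM in sham cord and 1023 and 1059.5 CPM in SNI cord. It rose in the cord by 0.14 (adjusted p = 0.00014) and changed in the DRG, where it is scarce, by -0.50 (adjusted p = 0.024). The difference was -0.64 ± 0.107 (SE, adjusted p = 0.0043), with an SE below what counting noise alone would give. Without the second SNI DRG library the Gfap difference was -0.41 (adjusted p = 0.32) and without the second sham DRG library -0.61 (adjusted p = 0.16), and neither was called. Ntsr2 and Slc6a11, a neurotensin receptor and a GABA transporter of astrocytes, differed by -0.85 and -0.68, and without the second SNI DRG library Slc6a11 was at -0.35 (adjusted p = 0.15). S100b, a calcium-binding protein of glia, differed by -0.29 ± 0.0345 (SE, adjusted p = 6.6e-08) at 381 CPM in sham DRG and 335 CPM in sham cord. Slc12a5, the chloride exporter of central neurons, was at 7.79 and 6.16 CPM in sham DRG, 3.63 and 1.7 CPM in SNI DRG, 1389 and 1392 CPM in sham cord and 1299.6 and 1301 CPM in SNI cord. Its DRG level fell and the difference was -1.36 ± 0.152 (SE, adjusted p = 1.3e-08), or -0.78 (adjusted p = 0.023) without the second SNI DRG library. Other genes that mark the cord were scarce in the DRG, missed the minimum there and had no test. Slc6a5 was at 4.17 and 2.84 CPM in sham DRG and 1.16 and 0.568 CPM in SNI DRG, Gad1, which makes GABA, at 1.95 and 2.25 CPM and then 1.82 and 0.900 CPM, Mobp of oligodendrocytes at 5.43 and 1.78 CPM and then 2.64 and 0.284 CPM, and Mog of myelin at 1.11 and 0.414 CPM and then 0.495 and 0.189 CPM. The sham and SNI pairs of Mobp and Mog overlapped. The summed list of spinal cord neuron genes went from 1350.02 and 1350.3 CPM in sham DRG to 1231 and 1227 CPM in SNI DRG, while the oligodendrocyte list stood at 1563 and 1479 CPM and then 1572 and 1542 CPM. The part of cord RNA in the DRG values of Slc12a5, Gfap, Ntsr2, Slc6a11 and Calb2 was not tested. DESeq2 did not call Slc12a5 or Slc6a11. Of 13 tested spinal cord neuron genes 2 were lower in the DRG (15.4%, beside the same 4.22%) and none higher. The 2 were the glutamate receptor subunits Gria2 (-0.33) and Grin1 (-0.27).

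Myelin genes gave a mixed picture. The counts of these and of the satellite glia genes stand beside 3.98% higher and 4.22% lower over all genes. Of 15 oligodendrocyte genes 3 were higher (1 without the second sham DRG library) and 1 lower, with Mbp, a gene of central and peripheral myelin, at -0.23 ± 0.0355 (SE, adjusted p = 8.7e-06). Tmem88b differed by 1.5 ± 0.296 (SE, adjusted p = 0.00049) at 1.2 and 3.65 mean CPM in sham and SNI DRG. The sham DRG libraries held 10 and 17 of its reads and the SNI DRG libraries 53 and 62, which carried it past the minimum, and without the second sham DRG library the difference was 1.19 (adjusted p = 0.11) and was not called. Of 14 Schwann cell myelin genes 3 were higher. Gldn, gliomedin of the node, and Cdh19, a Schwann cell cadherin, differed by 0.92 and 0.35, and DESeq2 called 1 of the 3. Gldn lost its call without the first sham cord (0.73) or first SNI cord library (0.81), and Cdh19 without the second sham cord library (0.30). Among 17 satellite glia and repair Schwann cell genes 3 were higher and 1 lower, led by Entpd2, an ATP-degrading enzyme, at 0.64 ± 0.116 (SE, adjusted p = 0.00015).

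The remaining lists cover general cell functions and blood cells. Over all genes 3.98% were called higher and 4.22% lower. Ribosomal protein genes (2.27% lower), translation factor genes (2.56% higher, 7.69% lower) and interferon-stimulated genes (5.88% each way) were near these shares. Of 82 listed ribosomal protein genes 44 reached the minimum, so the 2.27% does not cover the rest of that family. Among those that missed it, Rpl11 had 31 DRG and 36 cord reads and Rps29 had 12 and 7. Of 44 ribosomal protein genes 1 was lower, Rpl4 (-0.16, lost without any 1 library other than the second sham DRG or first SNI DRG), of 39 translation factor genes 3 were lower and 1 higher, and of 35 ATF4 and unfolded protein response genes 3 were higher, none of which DESeq2 called. Without the second sham DRG library 0 of the stress genes were called, and without the second SNI DRG library 1. The elongation factors moved apart, with the neuronal form Eef1a2 at -0.26 ± 0.0302 (SE, adjusted p = 3.2e-08) and the widely expressed form Eef1a1 at 0.22 ± 0.0501 (SE, adjusted p = 0.0032). Of 25 immediate early and ERK-responsive genes 5 were higher, Bdnf and Jun as above with Etv5 (0.47), Dusp1 (0.40) and Vgf (0.25), and DESeq2 called 1. Without the second sham DRG or second sham cord library 2 were called, and without the first sham or first SNI cord library 3. Dusp1 lost its call without any 1 library other than the second SNI DRG (0.36 to 0.48 over the 8 fits), and Etv5 without the second sham DRG (0.35), second SNI DRG (0.39), second sham cord (0.42) or first SNI cord library (0.36). Vgf, a secretory peptide precursor, rose in both tissues, by 0.45 in the DRG and 0.21 in the cord. Of 23 cholesterol synthesis genes 6 were higher, among them Sqle, which oxidises squalene, at 0.22, with DESeq2 calling 2. Interferon-stimulated genes had 1 of 17 higher, Gbp2 (0.70), and 1 lower, Lgals3bp (-0.23). Gbp2 was not called without the second sham cord (0.76) or first SNI cord library (0.67), nor Lgals3bp without the second sham DRG (-0.21), first SNI DRG (-0.21), second sham cord (-0.20) or first SNI cord library (-0.18). Erythroid and neutrophil genes had 2 of 14 lower, the globin Hbb-bs (-0.36) and the neutrophil protein S100a9 (-0.26), and both rose in the cord. Hbb-bs was not called without the second SNI cord library (-0.25), and S100a9 without any 1 library other than the first sham cord, with -0.14 (adjusted p = 0.51) without the second sham cord library. No lymphocyte gene reached the minimum.

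The largest single difference was in Zfand1, a zinc finger protein of stress granule clearance, which moved in opposite directions. The gene is at chr3:10339953-10351317 on the reverse strand of GRCm38 (GENCODE M21). It was at 194 and 182 CPM in sham DRG, 62.5 and 57.1 CPM in SNI DRG, 10.4 and 13.3 CPM in sham cord and 68.5 and 86.4 CPM in SNI cord. The pairs lay far apart in both tissues, the DRG down by 1.66 and the cord up by 2.67, for a difference of -4.32 ± 0.12 (SE, adjusted p = 1.2e-26). Its mRNA did not follow, with changes of 0.0029 in the DRG and 0.0063 in the cord. Other genes with called changes in opposite directions were Egfr, the epidermal growth factor receptor, up in the DRG and down in the cord, at 0.64 ± 0.102 (SE, adjusted p = 2.3e-05), and Arl4d, a small GTPase, down in the DRG and up in the cord, at -0.79 ± 0.172 (SE, adjusted p = 0.0016), a call lost without the second sham cord library (-0.56). Among genes called in the cord and not in the DRG, Sgk1, a kinase induced by glucocorticoids, was at 30.3 and 30.3 CPM in sham DRG, 31 and 31.1 CPM in SNI DRG, 135 and 143 CPM in sham cord and 200.1 and 206 CPM in SNI cord. The cord pairs did not overlap, and the DRG pairs lay side by side, for a difference of -0.50 ± 0.0803 (SE, adjusted p = 2.0e-05). Insc differed by 0.70 ± 0.17 (SE, adjusted p = 0.0051), and without the second SNI DRG library it was at 0.61 and not called. Mettl23 was called in the cord at 6.54 and 4.97 CPM in sham DRG, 4.46 and 6.2 CPM in SNI DRG, 2.42 and 2.54 CPM in sham cord and 7.24 and 3.66 CPM in SNI cord, on 129 cord reads, just above the minimum, and 3 other genes share exon bases with it. The sham cord libraries held 18 and 28 of its reads and the SNI cord libraries 57 and 26, and the first SNI cord library carried it past the minimum. Without that library its difference went from -1.12 to -0.51 (adjusted p = 0.60), and the call was also lost without the first sham DRG, first SNI DRG, first sham cord or second sham cord library.

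The mRNA of the same lysates gave the same contrast for 11147 of the genes, with 2260 called (20.3%), 1023 higher (9.18%) and 1237 lower (11.1%) in the DRG. Of the 920 genes with a called footprint difference and an mRNA test, 845 had the same sign in mRNA, 601 were called with the same sign, 308 were not called and 11 were called with the opposite sign. The shares with the same sign over all 11147 genes were not counted. The mRNA difference was 3.46 for Npy, 3.57 for Cckbr, 2.59 for Ecel1, 2.14 for Nts and -1.87 for Calb2, close to the footprint values. Footprints and mRNA share the lysate, so they are not independent samples. A difference of footprints over and above mRNA was tested as the interaction of tissue, surgery and assay, and 97 genes were called (0.87%), 58 (0.52%) positive and 39 (0.35%) negative, of which DESeq2 called 4 and 2. Among the 921 genes it was called for 40. Zfand1 had the largest value at -4.32 ± 0.212 (SE, adjusted p = 1.7e-29). Atp2a1 was at 1.2 ± 0.298 (SE, adjusted p = 0.017). Lpl, lipoprotein lipase, and Ifit1, an interferon-induced protein, were at 1.52 ± 0.278 (SE, adjusted p = 0.00022) and 1.31 ± 0.26 (SE, adjusted p = 0.0009), where mRNA fell in the DRG by 0.90 and 0.71 and the footprint differences did not pass the test. Cx3cr1 was at 0.83 ± 0.178 (SE, adjusted p = 0.0026). The mitochondrial genes mt-Nd1, mt-Nd5 and mt-Co1 were at 0.65 (adjusted p = 1.6e-09), 0.60 (adjusted p = 2.6e-07) and 0.46 (adjusted p = 9.8e-07). On the negative side, Atp6v0c, a proton pump subunit, was at -0.70 ± 0.151 (SE, adjusted p = 0.0032) and Eif4ebp2, a repressor of cap-dependent translation, at -0.76 ± 0.194 (SE, adjusted p = 0.025).

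**Figure D5:**
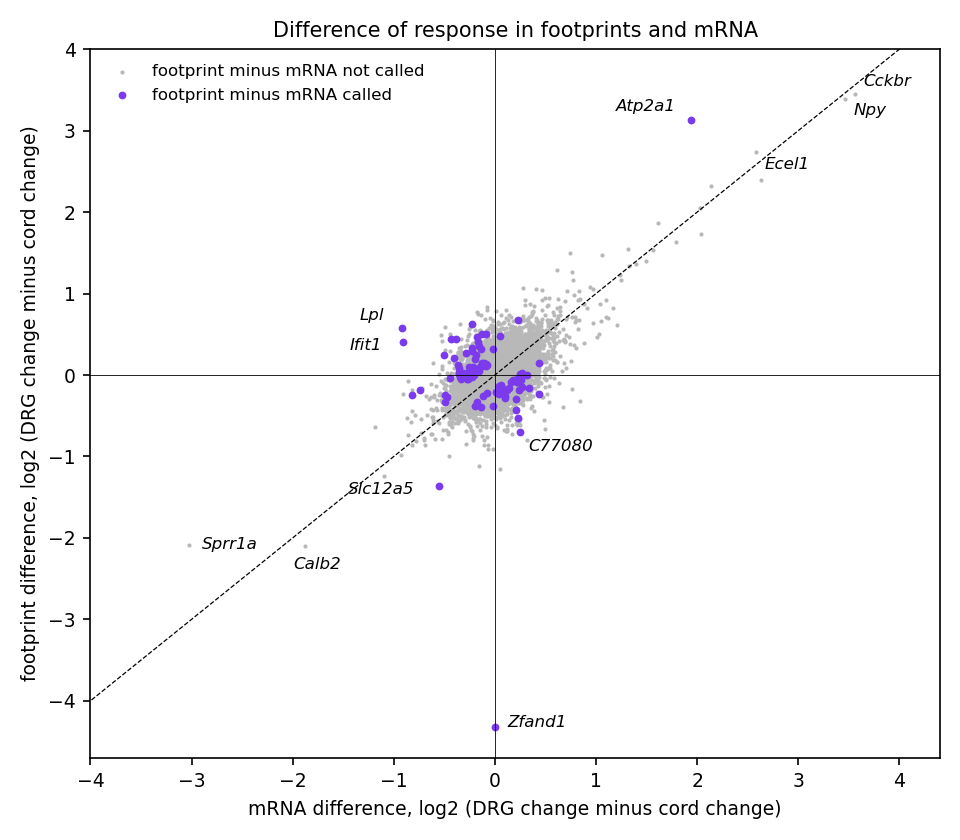
Difference of response in mRNA (horizontal) and in footprints (vertical), both log2 of DRG change minus cord change, for 11147 genes. Purple points were called for footprints minus mRNA (97 genes), grey points were not, and the dashed line marks equal differences. Npy, Cckbr, Ecel1 and Calb2 lie near the line, and Zfand1 lies far below it at an mRNA difference near 0.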

How the data were processed

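Footprint and mRNA read counts per gene came from 16 libraries (8 of each kind), deposited by the authors as raw counts. Per the submitters' processing notes, Bowtie 1.1.2, STAR 2.5.2b, HTSeq and GRCm38.p5 were used, and their parameters, including whether counting used strand, are not given in the sources used here. The 24 deposited RPKM and translation efficiency columns were not used.

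Counts were fitted with edgeR 4.0.16 (R 4.3.3) by quasi-likelihood, with TMM factors over the 8 footprint libraries and 4 group means, for genes of any type with at least 128 reads over the 4 libraries of each tissue. The tissue by surgery contrast was tested in all 11510 genes, p-values were adjusted by Benjamini-Hochberg over them, and 0.05 was the threshold. SE is the absolute log2 change divided by the square root of F. For genes with few reads in a tissue or group it can lie below counting noise and be too small for the adjusted p-value beside it. The SEs of Gfap, Scn9a, Sprr1a, Cckbr, Npy, Ecel1, Slc12a5 and Calb2 are among those below counting noise, and this is not a full list. The mRNA was fitted alike, and the footprint minus mRNA difference over all 16 libraries with a term for each lysate. Libraries held 6898056 to 21613483 footprint reads, and the joint biological coefficient of variation was 0.0361. Fitted alone it was 0.0433 for the DRG and 0.0158 for the cord. Scripts were tested on simulated data.

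The members and the 31 gene lists were chosen with earlier results of these data known. Named genes were the 12 largest called differences in each direction whose pools did not overlap in the tissue that changed more, up to 8 each called in both tissues in opposite or the same direction or in the cord alone, up to 4 per list, and up to 6 each way for footprints minus mRNA. C1q genes, some list members and genes missing the minimum were named for completeness after their values were seen. Alternatives were other scalings, DESeq2 1.42.0, limma 3.58.1 voom, other dispersions, filters, replicate blocks and leaving out each library. The replicate numbers were not treated as pairs. A few genes chosen by these rules are not reported here, though they are counted. Promoters came from RefSeq on GRCm38.p6 and gene positions from GENCODE M21.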

Additional observations from a re-analysis of the deposited data

Results flagged for a closer look

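The responses of the 2 tissues differed by the interaction test for 447 genes above 0 and 474 below, and after allowing for mRNA for 58 above and 39 below. Each gene given below passed that test and is listed for that reason, with its log2 difference (DRG change minus cord change) in parentheses. No explanation of these values was tested.

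Among genes of signalling, the neuropeptides gave Npy (3.39), Nts (2.32) and Gal (1.54), the receptors Cckbr (3.45), Npy1r (0.68) and Npy2r (0.53), the cytokine genes Csf1 (1.03), Il17ra (0.68), Csf1r (0.20) and Il6st (0.16) and the immediate early genes Bdnf (0.51), Etv5 (0.47), Dusp1 (0.40) and Jun (0.26). The axon growth genes gave Ecel1 (2.74), Sema6a (1.36), Flrt3 (1.33) and Sprr1a (-2.08). Large-diameter neuron genes gave Kcnc1 (-0.31), Esrrg (-0.52), Pvalb (-0.57), Whrn (-0.61) and Calb2 (-2.1), and nociceptor genes Gfra1 (0.42), Tac1 (-0.29), Scn9a (-0.55) and Htr3a (-0.58). Among channels the values were Kcnk1 (-0.36) and Kcnip1 (-0.48) for potassium and Cacna2d1 (0.53), Scn4b (-0.25) and Hcn2 (-0.30) for the others. Synaptic vesicle genes gave Cplx1 (-0.33), Snap25 (-0.33), Syt2 (-0.38) and Vamp1 (-0.40), spinal cord neuron genes Grin1 (-0.27) and Gria2 (-0.33) and motor neuron genes Slc5a7 (1.27), Chodl (0.84) and Ache (-0.17).

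Immune genes gave Trem2 (0.68), Cx3cr1 (0.63) and Mrc1 (0.50) for microglia, C3 (0.75), C4b (0.65) and Serping1 (0.27) for complement, Cd74 (0.24) for antigen presentation, Gbp2 (0.70) and Lgals3bp (-0.23) for interferon and S100a9 (-0.26) and Hbb-bs (-0.36) for blood cells. Glial genes gave Agt (-0.52), Gfap (-0.64), Slc6a11 (-0.68) and Ntsr2 (-0.85) for astrocytes, Tmem88b (1.5), Cspg4 (0.29) and Mbp (-0.23) for oligodendrocytes, Gldn (0.92) and Cdh19 (0.35) for Schwann cells and Entpd2 (0.64), Ednrb (0.32) and Glul (-0.13) for satellite glia. The endothelial values were Pecam1 (0.55), Cdh5 (0.44), Flt1 (0.36) and Pltp (0.27), the matrix values Mmp16 (1.17), Tnc (0.60), Nid2 (0.53) and Thbs2 (0.52) and the muscle values Atp2a1 (3.14), Myh4 (2.4), Tnnt3 (2.05), Mylpf (1.87), Ckm (1.73) and Acta1 (1.55).

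In metabolism and translation, the respiratory chain genes gave Ndufb10 (-0.25), Uqcrh (-0.25), Ndufs8 (-0.25) and Ndufb8 (-0.26), the cholesterol synthesis genes Hsd17b7 (0.46), Sqle (0.22), Msmo1 (0.16) and Hmgcs1 (0.14), the stress response genes Sdf2l1 (0.46), Manf (0.28) and Slc3a2 (0.12), the translation factors Eef1a1 (0.22), Eif3i (-0.22), Eef1a2 (-0.26) and Eif3k (-0.26) and the ribosomal proteins Rpl4 (-0.16). Genes of no list were Car3 (1.63), Insc (0.70), mt-Co1 (0.68), Egfr (0.64), mt-Nd5 (0.51), mt-Nd1 (0.46), Zfp335 (-0.43), Sgk1 (-0.50), C77080 (-0.70), Arl4d (-0.79), Galm (-0.86), Pigl (-0.91), Sirt4 (-0.91), Crybb1 (-0.98), Rwdd3 (-1.0), Mettl23 (-1.12), Fbxo16 (-1.15), Vstm2b (-1.24), Slc12a5 (-1.36) and Zfand1 (-4.32). For footprints minus mRNA the values were Lpl (1.52), Ifit1 (1.31), Atp2a1 (1.2), Ankrd60 (0.98), Cx3cr1 (0.83), Lig4 (0.83), Zfp335 (-0.66), Atp6v0c (-0.70), Eif4ebp2 (-0.76), Slc12a5 (-0.82), C77080 (-0.97) and Zfand1 (-4.32).

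When each of the 8 libraries was left out in turn, 58 of the 114 genes above with a called footprint difference kept the call in all 8 fits and 56 lost it in 1 or more. In 1 or more of these fits the value of Sprr1a, Tac1, Ache, Csf1r, Gfap, Slc6a11, Slc12a5, S100a9, Ndufb10, mt-Nd1, mt-Nd5, Mettl23, Agt, Sdf2l1, Crybb1 and Eif3i moved by over 1.5 times. Mettl23 was at -0.51 without the first SNI cord library, Agt at -0.31 without the second SNI DRG, and neither was called. Sdf2l1 was at 0.26 without the second sham DRG library and also lost its call without the second SNI DRG (0.36), first sham cord (0.43) or second SNI cord (0.43). Crybb1 was at -0.64 without the second sham DRG library and lost its call without any 1 library other than the first sham DRG. Eif3i was at -0.14 without the second sham cord or first SNI cord library, and its call was also lost without the second sham DRG (-0.16) or second SNI DRG (-0.18).

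Calls that rested on single libraries without such a move were those of C77080 (-0.62 without the first SNI cord), Fbxo16 (-1.06 without the second SNI cord), Whrn (-0.48 without the first sham DRG, -0.42 without the second SNI DRG), Hmgcs1 (0.12 without the first sham DRG, 0.13 without the second SNI DRG), Pltp (0.24 without the second sham DRG, 0.23 without the second SNI DRG) and Manf (0.26 without the second sham DRG, 0.29 without the first SNI cord). Cspg4 was not called without the second sham DRG (0.24), second SNI DRG (0.26) or second sham cord (0.30), Nid2 without the second SNI DRG (0.43), second sham cord (0.48) or first SNI cord (0.41), and Sirt4 without the second SNI DRG (-0.76), first sham cord (-0.81) or first SNI cord (-0.72). Flt1 was not called without the first library of any group (0.31 to 0.36), nor Msmo1 without the first sham DRG (0.12), second SNI DRG (0.15), second sham cord (0.14) or first SNI cord (0.15). Slc3a2 lost its call in 5 of the 8 fits (all but those without the first SNI DRG or either SNI cord library), Galm in 6 (all but those without the first SNI DRG or first SNI cord), Glul in 7 (all but that without the first sham DRG), Rwdd3 in 7 (all but that without the second sham DRG) and Pigl and Zfp335 in all 8.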

How the results depend on the processing

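Of the 129 genes chosen for naming, none changed sign under an alternative where it was called in the fit used or in that alternative. Sign changes of genes called in neither were not counted. The balance of calls did turn. Differences above and below 0 numbered 447 and 474 in the fit used and 553 and 359 with library sizes alone, and DRG changes up and down 842 and 957 in the fit used. The differences of response above and below 0 numbered 150 and 140 with DESeq2, 28 and 5 with a fixed coefficient of variation of 0.1 and 22 and 5 against a 1.5-fold difference, and 245 were below 0 with no filter. DRG changes up and down numbered 274 and 374, 84 and 21, and 31 and 4 under the first 3 of these, and 1089 and 682 with library sizes alone. Cord changes numbered 33 and 41, 6 and 4, and 3 and 1, and 344 were down with no filter. For mRNA DESeq2 called 393 and 518 (1366 and 947 with library sizes alone), and for footprints minus mRNA 4 and 2. The cause of these shifts was not tested.

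Leaving out each library in turn gave 293 to 420 differences above 0 and 254 to 386 below, 400 to 904 DRG changes up and 532 to 896 down, 45 to 97 cord changes up and 66 to 148 down, 714 to 986 mRNA differences above 0 and 889 to 1223 below, and 32 to 61 and 18 to 38 for footprints minus mRNA. The libraries that moved a footprint difference count by over 1.5 times were the second SNI DRG (293 above, 298 below), both sham cord (312 and 254 below) and both SNI cord (303 and 292 below). For the DRG change they were the second sham (400 up, 532 down) and second SNI DRG (465 up, 569 down), and for the cord change up all 4 cord libraries (45 to 52), with 66 down without the first SNI cord library. With 1 library left in a group, that library was assumed to vary like the others.

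Of the 129 genes chosen for naming, 57 lost their call with DESeq2 and 8 with library sizes alone. The legacy edgeR fit was identical to the one used, and the newer fit, chosen after seeing the data, called 434 and 452. Replicate numbers were shared between groups. The deviations of same-numbered libraries correlated at 0.274 between sham and SNI DRG and from -0.032 to 0.0076 for the other pairs of groups. No label ties same-numbered pools together, and only the DRG pair deviated together, so the block stayed an alternative. With the replicate block within tissue 474 and 511 were called, and across tissues 430 and 462.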
